A study of Mus musculus with 8 samples.

Results

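The Sfi1 locus lies on mouse chromosome 11 from position 3130850 to 3204347 (build mm10) and is the Sfi1 gene (3131850 to 3203347) with 1 kb on either side. Its 2 members are Sfi1, a protein-coding gene, and Gm33862, a lncRNA gene that lies wholly inside it (3137076 to 3139791). Of 5365124 distinct cytosine sites in the 8 libraries, 6674 fall in the locus. It was selected on its read depth and chosen with its pooled levels on both days known, so depth and day differences are given below as descriptions without a test. The contrast with and without the enzyme was not a ground for that choice and was tested, though the levels known at the time show it.

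NOMe-seq reads how open DNA is. Nuclei are treated with M.CviPI, which methylates the cytosine of GpC where no nucleosome or other protein covers it, and bisulfite sequencing then scores each read over a cytosine as methylated or not. The share of methylated reads at a site is called its level here, and a level without the enzyme is the background. There were 4 groups of 2 libraries, all from mouse embryonic fibroblasts (MEFs). They were day 1 of Etv2-induced reprogramming with M.CviPI, day 0 (control cells) with M.CviPI, day 1 without the enzyme and day 0 without it. Etv2 is an ETS-family transcription factor that drives endothelial and blood fates. Nothing in the labels tells separate cultures from repeat libraries of the same cells, so p-values measure the spread between these libraries, which may be technical. No expression was measured, so the cell type label was not checked against markers.

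Sfi1 encodes a centrin-binding protein of the centrosome, the organelle from which animal cells grow microtubules. In the yeast Saccharomyces cerevisiae, where Sfi1 is best known, it forms filaments with centrin in the half-bridge of the spindle pole body and is needed for that body to duplicate. Nothing is known here of what Gm33862 does. The locus also holds Gm11400 and Fau-ps2, which are annotated as pseudogenes, Gm51877 and the lower end of Eif4enif1, and it overlaps the pseudogene Pisd-ps1 at its lower end. Pseudogenes resemble other genes in sequence, and the placing of reads with several possible positions is not given in the sources used here.

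Bases around the start of Gm33862 show what the readout covers, and it is the only start in the deeply read part of the locus with a sequence in the RefSeq table used (GRCm38.p6, plus strand, chr11:3136826-3137125, 250 bases before the start to 50 after). Capitals mark the cytosines that at least 1 library lists, a capital G standing for the cytosine of the minus strand.

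Gm33862 start: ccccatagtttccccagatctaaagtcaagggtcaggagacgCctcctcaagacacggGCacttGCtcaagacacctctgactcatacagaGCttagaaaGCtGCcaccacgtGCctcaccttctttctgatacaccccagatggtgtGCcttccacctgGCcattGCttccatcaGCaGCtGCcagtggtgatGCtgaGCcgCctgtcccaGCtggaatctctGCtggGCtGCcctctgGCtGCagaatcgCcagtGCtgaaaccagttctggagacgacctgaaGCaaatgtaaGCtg

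This sequence holds 49 cytosines that follow a G and do not precede one, counted on both strands, and all 49 are listed in at least 1 library and 46 in all 8. Each library lists between 95.9% and 100% of them. Over all 32851 promoters of the table the same share is between 0.623% and 0.989%. The 3 cytosines of GCG, which belong to a GpC and a CpG at once, carry no call. Across all promoters all 66210 listed calls sat in GCA, GCC or GCT.

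The locus was read far more fully than the rest of the genome. The day 1 treated libraries listed 6378 and 6380 sites there, the day 0 treated ones 6178 and 6170, the day 1 untreated ones 6364 and 6400 and the day 0 untreated ones 6148 and 6066. A site had a mean of 13.9 and 13.6 reads in the day 1 treated libraries, 11.8 and 11.7 in the day 0 treated ones, 14.94 and 14.99 in the day 1 untreated ones and 11.4 and 10.7 in the day 0 untreated ones. On chromosome 11 outside the locus the means were between 3.23 and 3.39 reads, just above the smallest number of reads that a listed site can have, 3. From 87.7% to 89.8% of the sites there had exactly 3 reads, against 1.45% to 4.81% of the sites in the locus. No single site made this depth, since the most reads at any site of the locus were between 39 and 63 in a library.

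Among 31887 loci of protein-coding and lncRNA genes with a read, Sfi1 ranked first both by sites and by reads. The library with the fewest sites listed 6066 in it, while the next locus that does not overlap it had 682 by the same measure. Of the 10131 sites listed in all 8 libraries, 5131 (50.6%) lie in the Sfi1 locus, 418 elsewhere on chromosome 11 and 582 in mitochondrial DNA. Each library took between 2.66% and 3.85% of its reads from the locus.

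The depth had sharp edges that did not follow the gene's ends. Windows of 1 kb with at least 100 reads in every library ran without a gap from 3127001 to 3200000, a stretch of 73 kb. It began 4849 bp below the lower end of Sfi1, inside Pisd-ps1. The window just below it held between 8 and 62 reads per library, and the first window of the run between 1637 and 1957. At the upper side, the last position listed in all 8 libraries, 3200028, is 3319 bp short of the upper end of Sfi1. Beyond it the libraries listed between 1 and 17 sites up to the end of the locus, and Gm51877, which lies there, had no listed site in 4 of the 8 libraries. Within the run the number of reads per window varied together across libraries, with Pearson's r between 0.885 and 0.972 for every pair of libraries over its 70 windows in the locus. These windows share their base composition, and the correlation is a description. Of the 7 other genes within 200 kb that do not overlap the locus, none had 100 reads in every library, and the most reads that any of them had in a library were 229. Depth was not confined to the run, though. Below it, the windows starting at 3101001, 3104001 and 3124001 had 111 to 350, 241 to 428 and 114 to 272 reads per library. They held few sites, 8 to 18, 7 to 11 and 12 to 22 in a library. At 3104001 the mean reads per site were above those of the locus in every library.

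**Figure D1:**
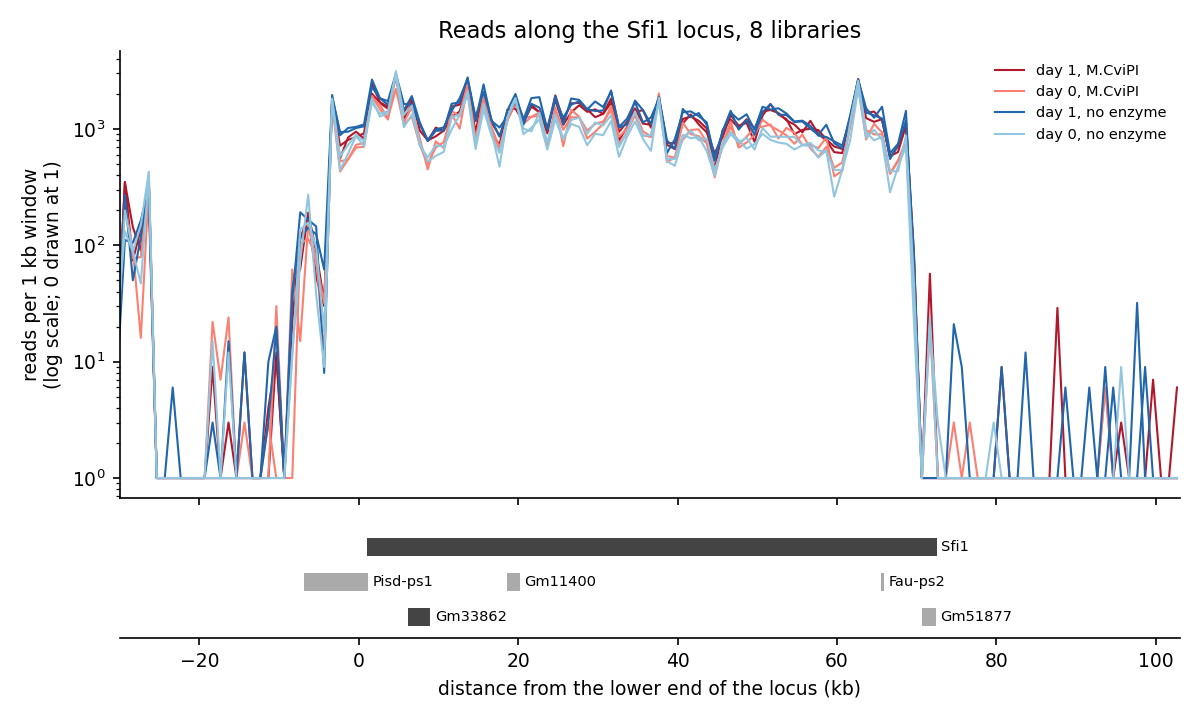
Reads per 1 kb window on a log scale against distance from the lower end of the locus in kb, with a line for each of the 8 libraries and bars for the annotated genes below. All 8 lines step up inside Pisd-ps1, stay high across it (the median window has a mean of 1083 reads per library) and step down before the upper end of Sfi1.

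With M.CviPI, slightly under 1 in 3 reads of the locus was methylated, and without it about 1 to 2 in 100. The Sfi1 locus had levels of 30.01% and 29.5% in the day 1 treated libraries, against 1.14% and 1.09% in the day 1 untreated ones. It had 27.7% and 28.2% in the day 0 treated libraries, against 2.34% and 2.36% in the day 0 untreated ones. Every treated library was above every untreated one, and the SD within a group was at most 0.370 percentage points (n = 2). Treatment added 28.6 percentage points on day 1 and 25.6 on day 0. Averaged over the days the difference was 27.1 points (exact two-sided permutation of the enzyme labels within days, p = 0.0556, the smallest that 36 arrangements allow; higher in 4 of 4 treated libraries). Chromosome 11 outside the locus had 30.8% ± 0.0567, 29.4% ± 0.276, 1.00% ± 0.0408 and 2.11% ± 0.149 in the same groups (day 1 treated, day 0 treated, day 1 untreated and day 0 untreated, SD, n = 2 each). The locus was near its chromosome in each group, though each treated library was lower in the locus (30.8% and 30.9% outside it on day 1, 29.2% and 29.6% on day 0). The autosomes outside the locus had 31.8%, 31.0%, 3.01% and 4.94% in the same order, so the untreated level of the locus was below theirs.

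Gm33862 followed the locus around it. It had 30.3% and 30.05% in the day 1 treated libraries, against 1.62% and 0.621% in the day 1 untreated ones. On day 0 it had 27.3% and 28.9% in the treated libraries, against 2.77% and 2.10% in the untreated ones. The treated and untreated libraries did not overlap on either day, with a difference of 27.4 points over both days (exact permutation p = 0.0556, the smallest possible). The 2 day 1 untreated libraries differed from each other by more than a factor of 2, on 50 and 21 methylated reads, and their exact Clopper-Pearson 95% intervals were 1.20% to 2.13% and 0.385% to 0.948%. Such intervals cover counting error only, and neighbouring cytosines are read on the same molecules, so they are too narrow.

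The other genes of the stretch gave levels of the same order. Gm11400 had 28.2% ± 2.47 in the day 1 treated libraries and 26.2% ± 0.279 in the day 0 treated ones, with 1.65% ± 0.103 and 2.22% ± 0.620 in the untreated libraries of day 1 and day 0 (SD, n = 2 each). Fau-ps2, on 28 or 29 sites, had 33.1% ± 0.668 and 30.9% ± 1.24 with the enzyme on day 1 and day 0, and 2.62% ± 0.0564 and 5.51% ± 0.284 without it. Its background was the highest of these genes, on 14 and 18 methylated reads in the day 1 untreated libraries and 17 and 18 in the day 0 ones. A single cytosine in it, at 3196678, had 37 methylated reads of 62 over the untreated libraries. The level without that cytosine was not computed. Pisd-ps1, a pseudogene named for a phosphatidylserine decarboxylase, had 31.8% ± 0.917 and 27.0% ± 1.02 with the enzyme and 0.637% ± 0.0711 and 1.48% ± 0.0156 without it, in the same order of days. Eif4enif1, which encodes a carrier of the translation factor eIF4E, had as few as 9 reads in a library and gets no value.

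**Figure D2:**
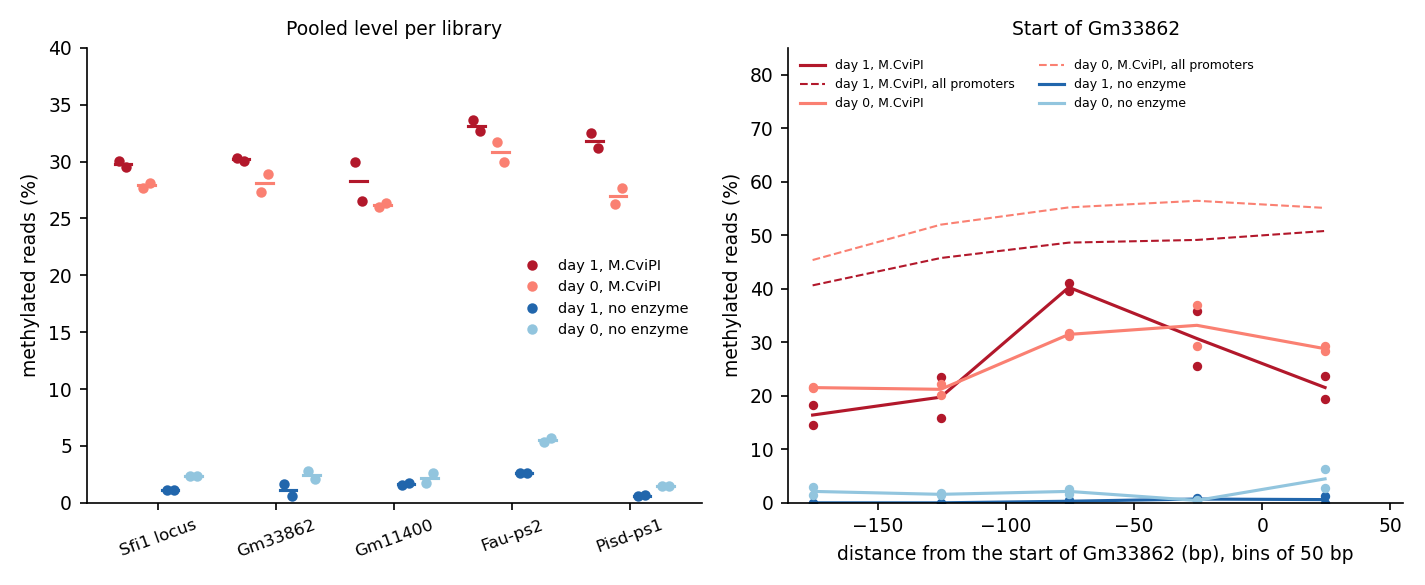
Left, percent of methylated reads per library (points) and group mean (bars) for the locus and the genes in it or at its edge; right, the level in bins of 50 bp around the start of Gm33862, with points for libraries, lines for group means and broken lines for all promoters of the RefSeq table outside the locus. Treated libraries sit between 25.99% and 33.6% on the left and untreated ones between 0.587% and 5.71%.

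In a model over all gene loci, the odds of a methylated read rose with M.CviPI at both members on both days. For the Sfi1 locus the log2 odds ratio of treated over untreated was 5.23 (SE 0.0856) on day 1 and 4.01 (SE 0.0834) on day 0, with edgeR adjusted p-values too small for the tool, which returned 0. For Gm33862 with 1 kb either side it was 5.23 (SE 0.164, edgeR quasi-likelihood adjusted p = 1.43e-215) on day 1 and 4.30 (SE 0.161, adjusted p = 7.47e-152) on day 0. These calls are not particular to the members, since 5650 of 5654 loci (99.9%) were called higher on day 1 and 5587 (98.8%) on day 0. The p-values rest on the spread between libraries, estimated with 2 libraries per group and shared over all loci tested. That spread may be technical, and neighbouring cytosines are read on the same molecules, so p-values this small should not be read at face value. The place of Sfi1 among the loci depended on the tool. In edgeR it lay below the median locus (5.51 on day 1 and 4.38 on day 0), with 39.6% and 36.5% of loci below it. In limma, where Sfi1 had the same 5.23 and 4.01, it lay above the median (4.94 and 3.81). limma adds 1 to each count, which moves loci with few reads more than Sfi1. The edgeR median also moved with depth. On sites with at least 5 reads it was 5.62 on day 1 and 4.03 on day 0, over 75 loci. Sfi1 has the most reads of all loci, so neither tool's median is on equal footing with it.

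Along the locus the enzyme effect was found in every window tested. Of the 73 windows of 1 kb that touch the locus and hold a site, 71 had 20 reads in every library, and all 71 were called higher with M.CviPI on both days, beside 99.6% of all 454 windows tested on day 1 and 98.9% on day 0 (edgeR adjusted p below the threshold of 0.05; the largest was 2.15e-06 on day 1 and 8.56e-05 on day 0). Their log2 odds ratios ran from 3.78 to 7.52 on day 1 with a median of 5.46 (6.73 is the highest without the thinnest window, which starts at 3200001), and from 2.83 to 5.10 on day 0 with a median of 3.93. In all 71 windows the 4 treated libraries were above the 4 untreated ones, as in 99.5% of the 383 windows outside the locus.

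The treated level varied over a narrow range along the locus. Mean levels of the windows ran from 25.6% to 33.4% on day 1 with a median of 29.8%, and the day 0 windows from 23.0% to 34.8% with a median of 28.1%. The SD of these means over windows was 1.76 points on day 1 and 2.29 on day 0. The 2 single libraries of a window differed by a mean of 2.34 points on day 1 and 2.44 on day 0. The highest day 0 window was the thinnest, with a mean of 57.3 reads per library over all 8. Split into 10 equal stretches, the part up to 3200028 had treated means from 27.9% to 31.4% on day 1 and, a little lower, from 26.2% to 29.6% on day 0. In the group means the 2 stretches nearest the upper end were the 2 lowest on both days, at 27.9% and 28.4% on day 1 and 26.2% and 27.1% on day 0. Single libraries did not all follow. In day 1 treated replicate 1 the 5th stretch was the lowest, at 28.6%. In day 0 treated replicate 2 the 10th, at 27.9%, was above the 3rd, at 27.3%.

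**Figure D3:**
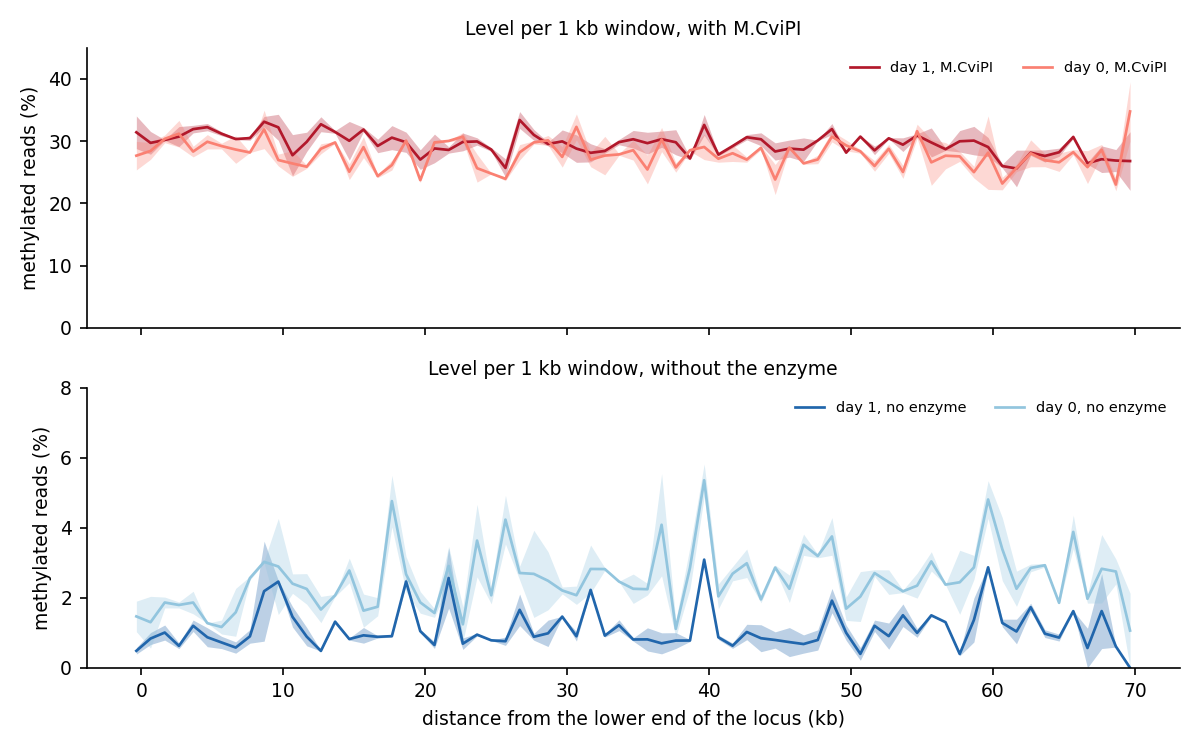
Percent of methylated reads per 1 kb window along the locus, treated libraries above and untreated libraries below on a narrower axis; lines are group means and bands run between the 2 libraries. Treated levels stay between 23.0% and 34.8% in the group means, and the day 1 untreated mean lies below the day 0 one in all 71 windows.

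The 2 days differed in opposite ways with and without the enzyme, which is a description because the locus was chosen with it known. With M.CviPI the day 1 mean was 1.82 percentage points above that of day 0. The untreated level was 1.24 points lower on day 1, or 0.473 times the day 0 level. Chromosome 11 outside the locus differed in the same directions, by 1.42 points with the enzyme and -1.11 points without it (0.475 times), and so did the autosomes, by 0.851 and -1.93 points, so the opposite signs are not particular to the locus. At Gm33862 the differences were 2.05 points with the enzyme and -1.31 points without it. Each depended on single libraries: the first was 1.27 points without replicate 1 of the day 0 treated libraries, and the second -0.815 without replicate 2 of the day 1 untreated ones. With 1 kb either side of Gm33862 they were 3.002 and -0.760 points. In neither member did the libraries of the 2 days overlap, with or without the enzyme, and the same held for chromosome 11 outside the locus. The share of all gene loci without such overlap was not computed, so it is not read as a trait of the members. The untreated difference recurred along the locus: in 61 of 71 windows both day 1 untreated libraries lay below both day 0 ones and in 0 windows above, while 27.2% of the windows outside the locus had them below. Both day 1 treated libraries lay above both day 0 ones in 33 windows, or 46.5%, and below in 3, beside 35.8% above outside the locus. These shares are not on equal footing, since the median window had a mean of 1083 reads per library in the locus and 158 outside it. The libraries of the 2 days also differ in depth, with 86597 to 95918 reads in the locus on day 1 and 65154 to 73011 on day 0, and day cannot be told apart from whatever else differed between those libraries.

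Single cytosines could be compared here, which few places of the genome allowed. In the locus 1687 sites had at least 10 reads in every library, 44.6% of all such sites on the autosomes and X. At 1508 of them (89.4%) the 4 treated libraries were all above the 4 untreated ones, beside 93.5% of the 2098 such sites outside the locus. The mean treated level of these sites had a median of 28.9%, a 5th percentile of 14.2% and a 95th of 44.8%. At 755 of them no untreated library had a methylated read.

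A small number of cytosines were read as methylated without any enzyme, that is, bisulfite left them unchanged. Of 6031 sites with at least 20 untreated reads in all, 21 had an untreated level above 30%, a threshold set after the values were seen. The lowest inside had 35.0% and the highest outside 27.3%. Of the 6031 sites, 3195 had no methylated untreated read at all. At the 21 sites the pooled level was 75.7% and 82.7% in the day 1 treated libraries, 83.4% and 75.7% in the day 0 treated ones, 71.3% and 72.4% in the day 1 untreated ones and 76.9% and 68.9% in the day 0 untreated ones. Over the 21 sites, both treated libraries were above both untreated ones on day 1, the treated and untreated libraries of day 0 overlapped, and so did the days. Of the 20 sites with a level in all 4 groups, both treated groups lay above both untreated ones at 7 and below at 2, and treated and untreated groups overlapped at 11. The site at 3149614, among the 7, had 81.5% in the day 1 treated libraries and 86.2% in the day 0 treated ones, against 60% and 50% in the untreated libraries of day 1 and day 0. The site at 3144254 had 100% methylated reads in all 4 treated libraries, against 94.7% and 96.0% in the day 1 untreated ones and 100% and 93.8% in the day 0 untreated ones. The site at 3193244 had 90.9% and 94.7% in the day 1 treated libraries and 100% and 77.8% in the day 0 treated ones, against 90.9% and 93.8% in the day 1 untreated ones and 91.3% and 86.4% in the day 0 untreated ones.

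Each of the 21 has the cytosine of the other strand of the same GpC among the listed sites, and that partner was not methylated in the same way. The partners had a pooled level of 23.3% ± 3.23 in the day 1 treated libraries and 25.1% ± 1.67 in the day 0 treated ones, and of 0.183% ± 0.259 and 2.23% ± 0.915 in the untreated libraries of day 1 and day 0 (SD, n = 2 each). No partner had an untreated level above 5.56%, and 11 of them had no methylated untreated read. The methylated cytosine was on the minus strand at 12 sites and on the plus strand at 9. Of the 21, 9 lie within 50 bp of another, in 4 groups, and the tightest pair at 3162506 and 3162511 spans 6 bp. Within the genes, 3 lie in Gm11400, 1 in Fau-ps2 and 0 in Gm33862. In all 8 libraries 18 were listed, and 1, at 3152237, was listed in a single day 1 untreated library.

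These few sites weighed on the background. They held 23.2% and 19.6% of the methylated reads of the locus in the day 1 untreated libraries and 9.11% and 9.49% in the day 0 untreated ones, on 0.278% to 0.370% of the reads of those libraries. Without them the untreated level of the locus was 0.877% ± 0.00134 on day 1 and 2.14% ± 0.00687 on day 0 (SD, n = 2 each), a ratio of 0.410. The difference between days in the untreated libraries thus lay at the remaining sites, where it was -1.26 points.

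**Figure D4:**
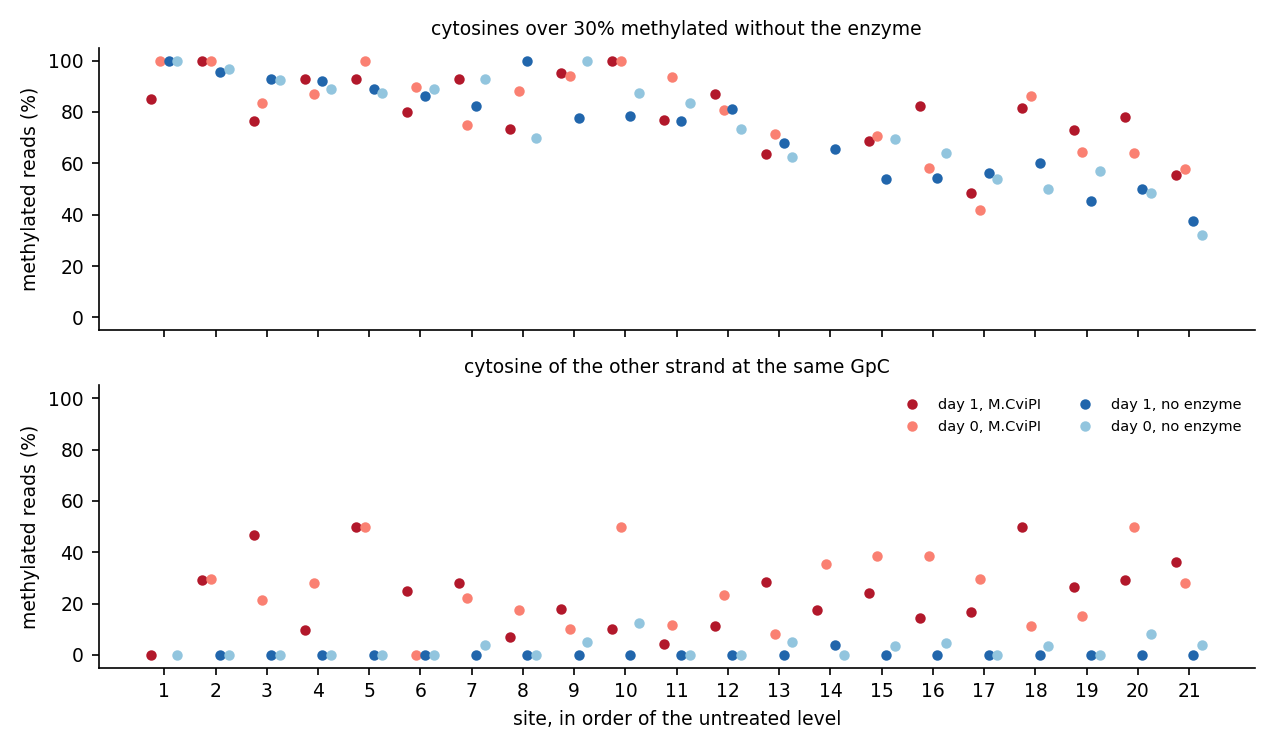
Percent of methylated reads in each group (points, 2 libraries pooled) at the 21 cytosines above 30% without the enzyme, in order of that level, and below at the cytosine of the other strand of the same GpC. In the upper panel treated and untreated groups overlap at 11 of the 20 sites with all 4 groups, and both treated groups lie above both untreated ones at 7; in the lower panel no pooled untreated level over both days is above 5.56%.

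In the treated libraries the likeness between the levels of 2 cytosines alternated with their distance. Nucleosomes, around which DNA is wrapped, cover it at near-regular spacing, and NOMe-seq reads them as stretches of low level. The 21 sites above were left out. For sites 2 to 10 bp apart in the same library, Pearson's r was 0.316 and 0.325 in the day 1 treated libraries and 0.311 and 0.299 in the day 0 treated ones. At 71 to 100 bp it was negative, at -0.086 and -0.105 on day 1 and -0.071 and -0.066 on day 0. Between 161 and 190 bp it was positive again, at 0.078 and 0.081 on day 1 and 0.053 and 0.044 on day 0. The untreated libraries did not alternate in this way, with values between 0.028 and 0.068 at 71 to 100 bp and between -0.012 and 0.009 at 161 to 190 bp. Sites close together are read on the same molecules, so these correlations share reads, and they are descriptions over 10787 to 36944 pairs of sites per distance.

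The alternation was also there when no read could be shared. With 1 site taken from one replicate and its neighbour from the other, r at 71 to 100 bp was -0.076 on day 1 and -0.051 on day 0 in the treated groups, against 0.021 and 0.024 in the untreated ones. In bins of 15 bp the treated groups had their first low at 77 to 91 bp on both days. Each low or high given here is the extreme bin within a fixed range of distances, so every group has one, also the untreated ones. The first high was at 197 to 211 bp on day 1 and at 182 to 196 bp on day 0, and the next low at 272 to 286 bp on both days. A second high stood at 362 to 376 bp on day 1 (r = 0.063) and at 347 to 361 bp on day 0 (r = 0.037). The correlations of the day 1 treated group were the larger in size at each of these 4 turns, but the day 1 libraries also had more reads per site, and the difference was not tested.

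**Figure D5:**
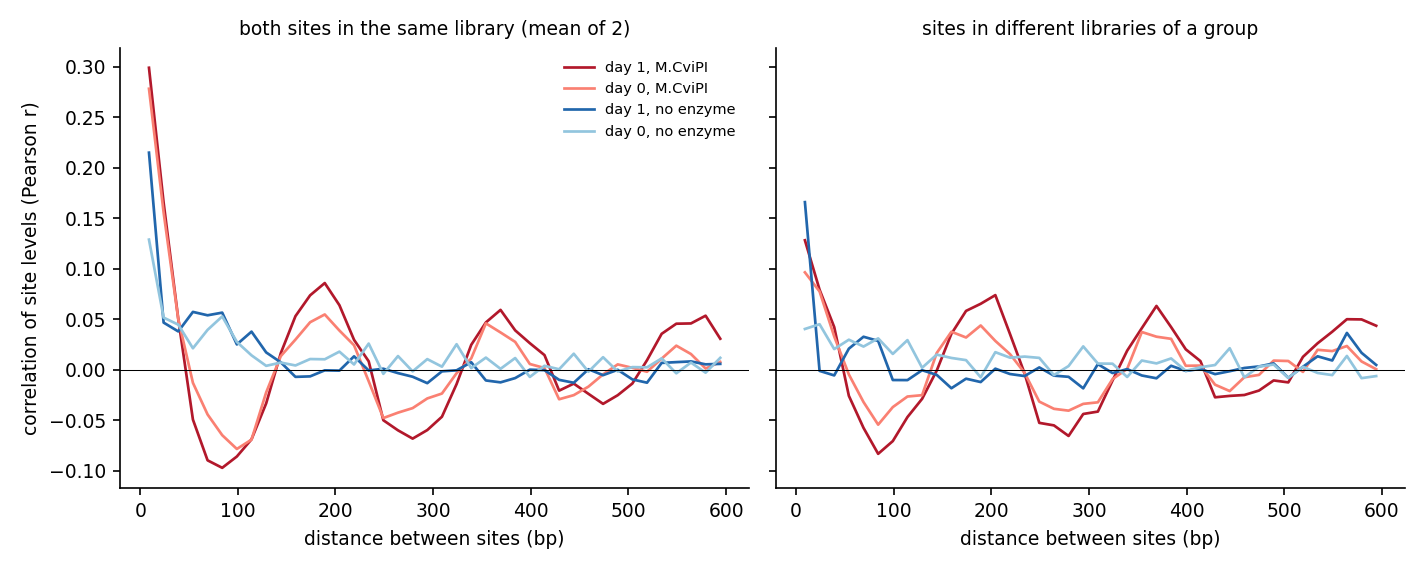
Pearson's r between the levels of 2 sites against their distance in bp, in bins of 15 bp, for the 4 groups; left, both sites in the same library (mean of the 2 libraries), right, the sites in different libraries of a group. Both treated lines are below 0 at 77 to 91 bp and at 272 to 286 bp and above it at 182 to 211 bp and 347 to 376 bp. Between libraries the untreated lines are at 0.028 on day 1 and 0.031 on day 0 at 77 to 91 bp, and at 0.001 and 0.017 at 197 to 211 bp.

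The 2 cytosines of the same GpC, on opposite strands, were only weakly alike in level. Between 2682 and 2944 such pairs were read in each library. The correlation of their levels was between 0.031 and 0.072 in the treated libraries and between -0.027 and 0.015 in the untreated ones. These values stand under a low ceiling, since the same cytosine in the 2 treated libraries of a day correlated with r = 0.288 on day 1 and 0.247 on day 0 at about 12 to 14 reads per site. Taken between those libraries, the 2 cytosines of a GpC had r = 0.088 on day 1 and 0.049 on day 0. The strands had near-equal levels overall: in the day 1 treated libraries the minus strand had 30.3% and 30.1% of methylated reads and the plus strand 30.7% and 30.1%. The 2 strands are read on different fragments after bisulfite treatment.

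Part of the fine pattern recurred between libraries. Over 500 windows of 100 bp with at least 30 reads in every library, the treated levels of 2 replicates correlated with r = 0.39 on day 1 and 0.41 on day 0. Between treated libraries of different days r was between 0.30 and 0.37, and between a treated and an untreated library between -0.00 and 0.11. These windows share base composition, and r is given as a description. The 50 windows with the highest treated level on day 0 had 34.3% and 34.3% in the day 1 treated libraries, which took no part in the choice. The 50 windows with the lowest had 25.3% and 23.4% there. Over all 500 windows the day 1 treated libraries had 29.9% and 29.4%.

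At the start of Gm33862 the treated level changed over short distances. From 200 to 151 bp before the start it was 18.2% and 14.5% in the day 1 treated libraries and 21.4% and 21.6% in the day 0 treated ones. From 100 to 51 bp before the start it was 39.5% and 41.0% on day 1 and 31.1% and 31.8% on day 0, above the outer stretch in each of the 4 treated libraries. From 50 to 1 bp before the start it was 25.5% and 35.8% on day 1 and 29.4% and 37.0% on day 0, so the replicates differed there. The level over the first 50 bases of the gene was 19.4% and 23.7% on day 1 and 29.3% and 28.3% on day 0. These bins hold 6, 13, 14 and 7 sites and between 53 and 239 treated reads per library, and were set after the values of the sites were seen. The untreated libraries had at most 6.25% in any of these bins. Over all promoters of the table outside the locus the pooled treated level was 48.6% on day 1 and 55.2% on day 0 in the stretch from 100 to 51 bp before the start, and 50.8% and 55.1% over the first 50 bases. Gm33862 was below both in every treated library, though other promoters were read at far fewer of their cytosines.

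The genes whose levels were most like those of the Sfi1 locus over the 8 libraries were taken by the root mean square difference of pooled levels, over 1265 loci with 100 reads in every library. They were Pdzrn3 (0.670 percentage points), Magi1 (0.688), Prkce (0.740), Tafa5 (0.779) and Foxp1 (0.790), while the median locus differed by 2.91. None of the 5 was read as deeply, with 3.11 to 3.15 reads per site. Pdzrn3 had 31.4% and 29.3% in the day 1 treated libraries, 27.6% and 29.1% in the day 0 treated ones, 0.851% and 0.735% in the day 1 untreated ones and 2.35% and 2.94% in the day 0 untreated ones. Gm33862 with its flanks, which overlaps the locus, differed by 0.866 points.

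Sfi1 was set beside a list of 28 centrosome and centriole genes, among them the centrins Cetn2, Cetn3 and Cetn4, the kinase Plk4, which starts centriole duplication, and the scaffold proteins Pcnt and Cdk5rap2. Only 11 of the 28 had 20 reads in every library, and all 11 were called higher with M.CviPI on both days (edgeR adjusted p), beside the 99.9% and 98.8% of all loci. Their median log2 odds ratio was 5.37 on day 1 and 5.02 on day 0, beside 5.51 and 4.38 over all 5654 loci. Pcnt, which anchors the gamma-tubulin ring complex, had 36.6% in the pooled day 1 treated libraries and 28.9% in the day 0 treated ones, against 1.37% and 2.99% in the untreated libraries of day 1 and day 0. Cdk5rap2 had 26.0% and 24.3% with the enzyme and 5.09% and 4.60% without it, in the same order. Their deepest library held 462 and 327 reads over the whole locus, against the 65154 reads or more of Sfi1.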

How the data were processed

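NOMe-seq was measured in 8 libraries. The authors deposited 1 table per library on genome build mm10, per the submitters' processing notes, with the fraction of methylated reads (rounded to 2 decimals) and the read count of each cytosine. The units were read from the values, and no listed site has under 3 reads. Aligner, caller and duplicate removal: not given in the sources used here. Libraries held 439527 to 1012656 sites and 1693307 to 3577740 reads.

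Methylated reads were the rounded product of both columns. Levels are methylated reads over reads. Methylated and unmethylated counts per gene locus (gene and 1 kb either side, RefSeq on GRCm38.p6, 34610 protein-coding and lncRNA genes) or per 1 kb window, with 20 reads in every library, entered edgeR 4.0.16 quasi-likelihood fits (R 4.3.3) with a term per library and the enzyme effect per day over all 8 libraries, Benjamini-Hochberg threshold 0.05. SEs are the effect over the root of F. The fits were tested on simulated data. limma 3.58.1 on log2((methylated + 1)/(unmethylated + 1)) was an alternative, with others on read minimums, sites, libraries and the replicate block. Scaling by TMM or size factors does not apply to a ratio within a library. Python 3.11.15 (numpy 2.4.6, pandas 2.3.3, scipy 1.17.1) did the rest. Named genes were Sfi1, Gm33862, neighbours within 200 kb, the 5 most alike loci and the centrosome list; sites and windows needed the minimums given. Members, lists and tests were chosen with earlier results of these data known.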

Additional observations from a re-analysis of the deposited data

Results flagged for a closer look

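The difference between days had opposite signs with and without the enzyme in both members. At the Sfi1 locus every day 1 treated library was above every day 0 treated one (1.82 percentage points in the means), while every day 1 untreated library was below every day 0 untreated one (-1.24 points). At Gm33862 the same differences were 2.05 points in the treated libraries and -1.31 points in the untreated ones. The same opposite signs were found on chromosome 11 outside the locus (1.42 points treated, -1.11 untreated) and over the autosomes (0.851 and -1.93 points). On chromosome 11 outside the locus the libraries of the 2 days did not overlap either, with or without the enzyme. The share of all gene loci without such overlap is not given here. That the difference between days depends on the enzyme was not tested here, since the locus was chosen with these differences known. Groups of 2 libraries are too small to look for a library far from the others.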

How the results depend on the processing

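Of 217 values of the main results under alternative settings, 201 counted as the same and 0 reversed. The same means an unchanged direction, side of the threshold and, for counts and untested values, size. Some of the 217 could not have changed, so 201 overstates what was put to the test. The exact permutation tests of the enzyme could not change side under any setting, because their smallest possible p-value lies above the threshold. For them only the direction could change. A difference between days also stays as it is when the library left out took no part in it. Leaving out each library in turn left the log2 odds ratio of the Sfi1 locus between 5.20 and 5.26 on day 1 and between 3.99 and 4.02 on day 0, and that of Gm33862 between 4.96 and 5.53 and between 4.28 and 4.32, all past the threshold; a group left with 1 library was assumed to vary like the others. With limma and each library centred on its median locus the value is relative to other loci: the Sfi1 locus had 0.32 (adjusted p = 0.0167) on day 1 and 0.22 (adjusted p = 0.182) on day 0, and Gm33862 0.32 (adjusted p = 0.682) and 0.49 (adjusted p = 0.432). The 1 added to each count moves thin loci more than Sfi1 here too. How much of the 0.32 comes from that was not tested, so it is not read as placing Sfi1 above other loci. The gene loci called higher on day 1 and day 0 were then 6 and 8, with Sfi1 among the 6. They were 2682 and 2680 with at least 50 reads, 10405 and 9711 with at least 5, 75 and 75 on sites with at least 5 reads, and 10135 on day 1 with the 4 libraries of that day, because other numbers of loci could be tested. With windows of 500 bp all 139 of the locus were called on both days. The untreated difference between days at the Sfi1 locus was -0.998 on sites with at least 10 reads and -1.41 as a mean of site fractions; the cause was not tested. Without the 21 sites methylated without the enzyme, an alternative added after seeing the data, it was -1.26. At Gm33862, leaving out each library in turn put the untreated difference between -1.81 and -0.815, against -1.31 with all, and the treated one between 1.27 and 2.84, against 2.05. With the replicate number as a block the Sfi1 locus had 5.23 on day 1 and 4.01 on day 0, with 5646 and 5565 loci called, and no call of either member changed. The deviations of same-numbered libraries showed almost no correlation across loci (r between -0.024 and 0.019 over 5654 loci). Counting error at loci with few reads can hide a shared deviation, and a shift of a whole library does not change r. Whether same-numbered libraries share more than a number can therefore not be told from these values. On chromosome 11 outside the locus most sites have 3 reads, so that single values there are coarse.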
